A study of Homo sapiens with 6 samples.

Results

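The genes described here encode the subunits of the 3 nuclear RNA polymerases. RNA polymerase I (Pol I) makes the large ribosomal RNA precursor in the nucleolus, Pol II makes messenger RNA and many small nuclear RNAs, and Pol III makes transfer RNA, the smallest ribosomal RNA and other short RNAs. Each enzyme is built on a catalytic core of a largest and a second-largest subunit, an assembly platform, a stalk that binds the emerging RNA and a zinc-ribbon subunit that helps cut stalled RNA. A set of 5 small subunits sits in every enzyme, and a further pair is shared by Pol I and Pol III. Every row of the deposited gene table named POLR1, POLR2 or POLR3 followed by letters, with or without a final digit, was taken, and names of pseudogenes or antisense genes were left out. This gave 35 of 61860 genes under 34 symbols, because POLR2J3 is listed under 2 identifiers. The rule used no measured value. By enzyme, 6 belonged to Pol I only, 11 to Pol II only, 10 to Pol III only, 2 to Pol I and III and 5 to all 3 enzymes, and POLR2M encodes a Pol II-associated protein.

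RNA was sequenced from SH-SY5Y, a human neuroblastoma line, after differentiation with all-trans retinoic acid. All cells were made insulin resistant (IR) over 24 h in medium holding D-glucose at 30 mM and insulin at 100 nM, which the controls carry too. The IR control group (3 libraries) received nothing more, and the IR+Oligonol group (3 libraries) also received Oligonol, a polyphenol preparation from lychee fruit, at 500 ng/mL for 24 h. The comparison of the groups asks how Oligonol changed gene expression in insulin-resistant cells, and no cells without insulin resistance were analysed here. The labels do not say whether the 3 replicates were separate cultures. The p-values therefore reflect only how far these libraries differ among themselves, and that spread may be technical.

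Estimated counts summed to between 19457923 and 32209583 per library, of which protein-coding genes took 6.24 to 6.83% in controls and 10.0 to 12.3% with Oligonol. Values behaved as transcript abundances per transcript length, so levels can be set side by side between genes. They are given as CPM (counts per 1000000 in the library) after TMM scaling, a correction for library composition. Of 9 markers of noradrenergic neuroblastoma cells 8 were tested. Of these 1 was lower and 0 were higher, where 23.0% of all genes tested were lower and 26.0% higher. Their summed level, carried mostly by PHOX2A, GATA2 and HAND2, was 201 to 237 CPM in controls and 122 to 169 CPM with Oligonol, GATA3 and ISL1 overlapped between groups, and the defining enzyme gene TH was at or below 0.116 CPM in every library. Summed markers of glia (0.826 to 1.53 CPM) and myeloid cells (0.421 to 1.27 CPM) were low in all libraries, and mesenchymal markers summed to 17.3 to 23.9 CPM, nearly all from TWIST1. In bulk RNA, fewer cells of a kind and less RNA per cell cannot be told apart.

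Of the 35 genes, 33 passed the filter on low counts, and POLR3B and POLR3G did not. At an adjusted p under 0.05 by edgeR's quasi-likelihood test, 3 were higher with Oligonol (POLR1F, POLR2B and POLR2D), where 26.0% of the 16574 genes tested were higher. Another 14 were lower (among them POLR1G, POLR1H, POLR2A, POLR2E, POLR2F, POLR2G, POLR2H, POLR2I, POLR2J, both rows of POLR2J3, POLR2J4 and POLR3E), where 23.0% of all genes tested were lower. In either direction 17 of the 33 passed, and 48.9% of all genes tested did. The other 16 did not pass, and POLR1F had passed the filter through its Oligonol libraries alone. Calls for POLR1H, POLR2B and POLR2D were kept in all 6 fits that left out 1 library. The 13 calls that at least 1 of these fits lost were all lost without Oligonol 1 and without Oligonol 3, 11 without control 2 (all but POLR1F and 1 row of POLR2J3), 10 without control 3 (all but POLR2J4 and both rows of POLR2J3), 4 without control 1 (POLR1F, POLR2A, POLR2E and POLR3E) and 1 without Oligonol 2 (POLR2A). The median log2 fold change of the 33 was -0.49, against 0.15 for all genes tested and 0.035 for protein-coding genes tested. Scaled by library totals instead, all genes tested had a median of 1.53 and the 33 one of 0.89, and 24 subunit genes were called higher (68.1% of all genes) and 0 lower (0.223%). The difference between those medians was -0.64 under both scalings, and every direction below is relative to TMM scaling.

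Direction among the subunit genes ran with the base composition of their transcripts, as it did across the genome. Across the 33 genes Spearman's rho between transcript GC content and log2 fold change was -0.75, and across 11719 protein-coding genes it was -0.85. Both are descriptions across genes of the same 6 libraries. Of the 5 subunit genes with transcripts under 45% GC, 2 were higher and 0 lower, where 65.7% of such protein-coding genes were higher and 0.311% lower. Of the 11 with at least 55% GC, 0 were higher and 9 lower, where 0.536% were higher and 70.1% lower. In the middle range 1 of 17 was higher and 5 were lower, where 20.3% and 8.21% of protein-coding genes were. Many results are therefore also given after each library's trend with GC was removed. Such a fit removes whatever runs with GC, whether it arose in the cells or in the library. In it 2.89% of 16200 genes were higher and 2.56% lower (5.45% in either direction), and 1 subunit gene was lower (POLR1H) and 0 were higher. An unadjusted edgeR p under 0.05 was found for 8 of the 33, and for 4447 of all 16200 genes. With GC taken from each gene's longest coding transcript instead, 2 subunit genes were higher (8.52% of genes tested) and 7 lower (9.97%; either direction 18.5%).

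**Figure D1:**
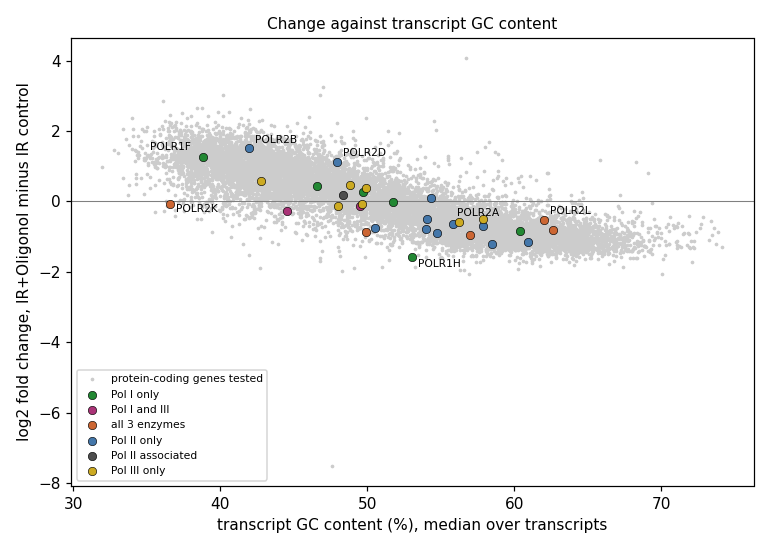
Log2 fold change (IR+Oligonol minus IR control, TMM scaling) of 32 subunit genes, coloured by enzyme, against the GC content of their transcripts in percent (median over the gene's transcripts); grey points are protein-coding genes tested. Most subunit genes lie within the downward band of the grey points (Spearman's rho -0.75 across all 33 tested subunit genes and -0.85 for the grey points), and POLR1H and POLR2K lie toward its lower edge.

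Partners within Pol II differed in direction under TMM scaling. The largest subunit gene POLR2A was lower and the second-largest POLR2B higher, which together encode the active site, and the stalk gene POLR2G was lower and its partner POLR2D higher (under library totals POLR2A and POLR2G had log2 fold changes of 0.73 and 0.62). POLR1H, a zinc-ribbon subunit gene of Pol I, was called with and without the trend of median transcript GC. Upstream sequence is shown for POLR2B, POLR2D and POLR1H, whose calls were kept in every fit that left out a library. POLR2A is shown as the partner of POLR2B, and its own call was lost in each of those fits. The 250 bases before the RefSeq start are given 5′ to 3′ on the gene's strand (build GRCh38.p14), with CCAAT boxes (CCAAT) and GC boxes (GGGCGG) in capitals on either strand. POLR2A lies at chr17:7484116-7484365 (plus strand), POLR2B at chr4:56978646-56978895 (plus), POLR2D at chr2:127858156-127858405 (minus) and POLR1H at chr6:30061015-30061264 (plus).
POLR2A: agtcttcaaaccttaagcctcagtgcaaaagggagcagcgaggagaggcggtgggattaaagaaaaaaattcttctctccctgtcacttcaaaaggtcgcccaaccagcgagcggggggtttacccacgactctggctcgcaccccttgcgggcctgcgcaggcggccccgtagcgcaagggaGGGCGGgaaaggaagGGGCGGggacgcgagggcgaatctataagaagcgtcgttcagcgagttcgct
POLR2B: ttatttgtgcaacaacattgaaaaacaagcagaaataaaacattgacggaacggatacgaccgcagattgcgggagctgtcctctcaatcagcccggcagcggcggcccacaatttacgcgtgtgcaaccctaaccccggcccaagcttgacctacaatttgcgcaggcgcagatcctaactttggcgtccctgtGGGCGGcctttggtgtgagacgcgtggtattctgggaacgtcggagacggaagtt
POLR2D: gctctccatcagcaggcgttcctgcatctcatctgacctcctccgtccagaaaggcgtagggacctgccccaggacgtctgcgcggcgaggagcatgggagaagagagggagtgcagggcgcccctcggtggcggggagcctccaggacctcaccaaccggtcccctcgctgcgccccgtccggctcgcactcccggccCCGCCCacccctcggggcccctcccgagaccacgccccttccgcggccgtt
POLR1H: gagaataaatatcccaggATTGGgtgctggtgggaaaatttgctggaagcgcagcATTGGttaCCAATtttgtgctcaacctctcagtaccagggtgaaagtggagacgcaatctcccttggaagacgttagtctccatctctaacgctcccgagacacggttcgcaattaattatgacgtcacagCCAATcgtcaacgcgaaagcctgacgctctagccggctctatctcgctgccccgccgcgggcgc

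The set of RefSeq promoter windows used here, 250 bases before to 50 after the start, held 24 of the 34 symbols. Symbols with no window included POLR1E, POLR2G, POLR2I, POLR2J, POLR2J3, POLR2J4, POLR2K, POLR3D and POLR3G. A GC box was present in 16 of the 24 windows (66.7%) and in 44.6% of all 27305 promoter windows. The ETS core CCGGAAG was present in 9 (37.5%, against 10.7%), the CCAAT box in 5 (20.8%, against 35.7%) and the TATA box TATAAA in 1 (4.17%, against 11.95%), that of POLR2M. The NRF1 core GCGCATGC was found in 2 windows (8.33%, against 3.27%) and the YY1 site AAGATGGC in 1 (4.17%, against 3.03%). Both strands were searched, and no motif was required to be free of another. The window of POLR1H held 4 CCAAT boxes and no GC box, that of POLR2D 1 GC box and 1 ETS core, the latter beyond the bases printed, and those of POLR2A and POLR2B held 2 GC boxes each, 1 of POLR2B's past the start. Median GC of the 24 windows was 60.7%, against 58.3% for all windows. These matches describe the letters only.

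The largest subunits carry most of the catalytic centre. POLR2A, whose product bears the long repeat tail that coordinates messenger RNA processing, measured 16.9, 12.7 and 14.7 CPM in the controls and 7.57, 9.48 and 11.6 CPM with Oligonol. All Oligonol libraries lay below all controls (log2 fold change -0.63 ± 0.23 SE, edgeR adjusted p = 0.0493). With the GC trend removed the log2 fold change was -0.098 (edgeR adjusted p = 0.789). Its Pol I counterpart POLR1A measured 4.11, 3.61 and 4.55 CPM in controls and 4.42, 3.63 and 4.15 CPM with Oligonol, overlapping groups with a log2 fold change of -0.013 ± 0.17 SE (edgeR adjusted p = 0.956). For POLR3A of Pol III the controls gave 1.89, 1.67 and 1.79 CPM and the Oligonol libraries 2.26, 2.20 and 2.52 CPM. Its Oligonol libraries were all above the controls, yet the difference of 0.37 ± 0.17 SE did not pass (edgeR adjusted p = 0.106). Among all genes tested, 33.8% had all Oligonol libraries above and 28.8% all below the controls, and among the 33 subunit genes 6 and 13 did.

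The second-largest subunits line the other side of the catalytic cleft. POLR2B measured 2.06, 2.89 and 2.07 CPM in controls and 7.19, 6.72 and 6.07 CPM with Oligonol. It showed the highest fold change of the 33 genes, with every Oligonol library above the highest control (log2 fold change 1.51 ± 0.20 SE, edgeR adjusted p = 0.0061). With the GC trend taken out, its log2 fold change was 0.63 ± 0.16 SE, which did not pass (edgeR adjusted p = 0.0684), and it passed again when GC was taken from the longest coding transcript. POLR1B of Pol I measured 5.01, 3.57 and 3.28 CPM in controls and 5.63, 4.004 and 6.47 CPM with Oligonol, with overlapping groups (0.45 ± 0.25 SE, edgeR adjusted p = 0.161). POLR3B of Pol III, with the lowest mean of all subunit genes in each group, measured 0.186, 0.160 and 0.118 CPM in controls and 0.434, 0.259 and 0.394 CPM with Oligonol. It failed the filter on low counts. Without a filter its log2 fold change was 1.35 (edgeR adjusted p = 0.0756), and when values were first turned back into approximate reads by transcript length it was 1.12 and passed (edgeR adjusted p = 0.0105).

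**Figure D2:**
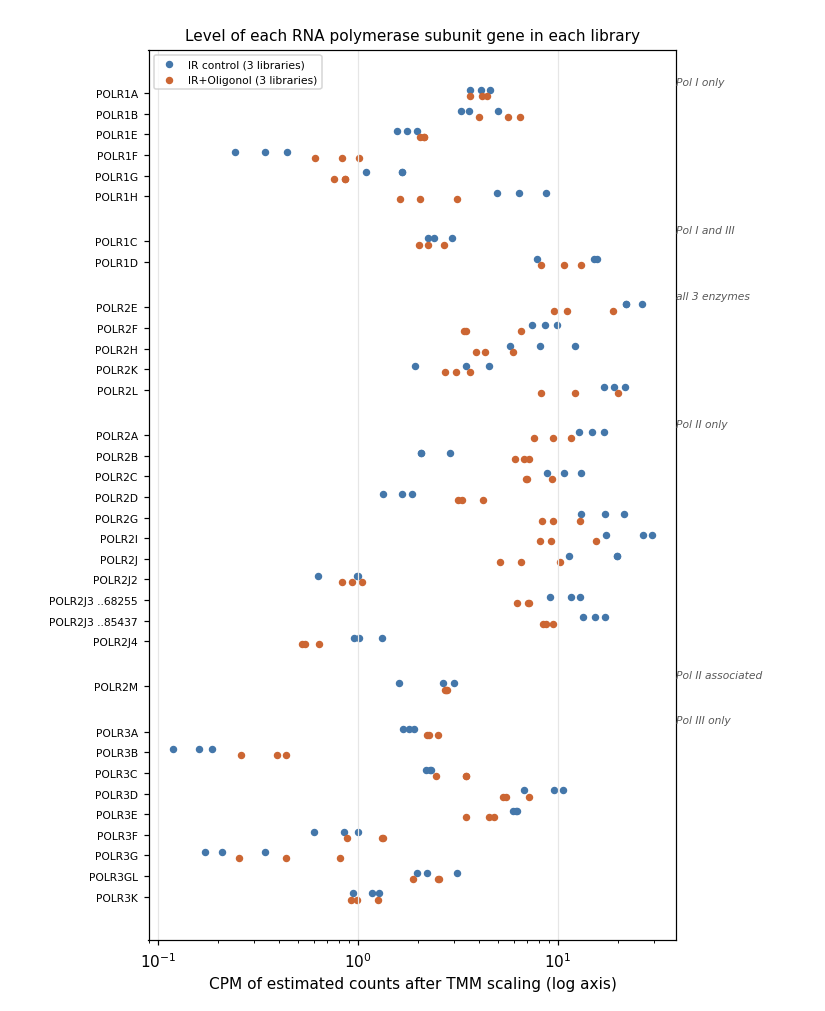
CPM after TMM scaling (log axis) of 34 subunit genes in each of 6 libraries, grouped by enzyme; blue points are the 3 IR controls and orange points the 3 IR+Oligonol libraries, and the rows of POLR2J3 carry the end of their identifier. The groups are apart for POLR2B (2.06 to 2.89 CPM against 6.07 to 7.19 CPM) and for POLR1H in the other direction, and they overlap for POLR1A; with library totals as the scale, POLR1H is not called (log2 fold change -0.20).

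Ratios of subunits within a library do not depend on scaling between libraries. The ratio of POLR2A to POLR2B was 8.24, 4.40 and 7.11 in the controls and 1.05, 1.41 and 1.91 with Oligonol. The groups did not overlap, and the mean log2 ratio fell by 2.17 (exact permutation p = 0.1, 2-sided, and 0.167 adjusted over the 5 ratios computed). A p of 0.1 is the lower limit of this test with 3 libraries a group. With the GC trend removed it fell by 0.70 (exact permutation p = 0.2). In Pol III the ratio of POLR3A to POLR3B was 10.2, 10.4 and 15.2 in controls and 5.20, 8.48 and 6.38 with Oligonol. The log2 difference was -0.84 (exact permutation p = 0.1, adjusted 0.167). This ratio has no value with the GC trend removed, because POLR3B failed the filter on low counts. In Pol I the ratio of POLR1A to POLR1B was 0.821, 1.01 and 1.39 in controls and 0.785, 0.906 and 0.641 with Oligonol, with overlapping groups (log2 difference -0.45, exact permutation p = 0.2, and 0.14 with the GC trend removed).

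The stalk of Pol II is a heterodimer of the products of POLR2D and POLR2G, which clamps onto the core and contacts new RNA. POLR2D measured 1.65, 1.86 and 1.33 CPM in controls and 3.17, 3.31 and 4.19 CPM with Oligonol, with groups apart (log2 fold change 1.13 ± 0.21 SE, edgeR adjusted p = 0.0084). POLR2G measured 13.02, 17.1 and 21.2 CPM in controls and 8.26, 12.8 and 9.39 CPM with Oligonol (-0.76 ± 0.26 SE, edgeR adjusted p = 0.0429). The stalk partners thus moved in opposite directions relative to TMM scaling, while under library totals POLR2G had a log2 fold change of 0.62. Their within-library ratio, POLR2G over POLR2D, was 7.88, 9.19 and 15.95 in controls and 2.61, 3.87 and 2.24 with Oligonol. Every control ratio exceeded every Oligonol ratio, and the mean log2 ratio fell by 1.89 (exact permutation p = 0.1, adjusted 0.167). Their transcripts are close in GC content, 48.0% for POLR2D and 50.5% for POLR2G, and with the GC trend removed the log2 ratio still fell by 1.53 (exact permutation p = 0.1). In that fit POLR2D had a log2 fold change of 0.75 (edgeR adjusted p = 0.0604) and POLR2G one of -0.82 (edgeR adjusted p = 0.0749), so neither passed alone. With GC of the longest coding transcript both passed, POLR2D at 0.65 (edgeR adjusted p = 0.0341) and POLR2G at -0.72 (edgeR adjusted p = 0.0197).

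**Figure D3:**
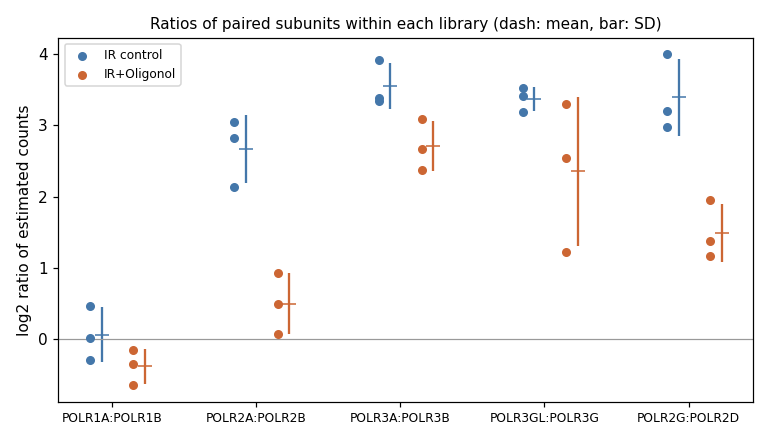
Log2 ratio of estimated counts of 2 subunit genes within each library for 5 pairs; blue points are IR controls, orange points IR+Oligonol, and the dash and bar are the mean and SD of 3 libraries. The groups are apart for POLR2A:POLR2B, POLR3A:POLR3B and POLR2G:POLR2D, and they overlap for POLR1A:POLR1B and POLR3GL:POLR3G.

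POLR1F encodes the stalk subunit of Pol I. It measured 0.243, 0.439 and 0.344 CPM in controls and 1.01, 0.611 and 0.835 CPM with Oligonol. All Oligonol libraries were higher (log2 fold change 1.25 ± 0.34 SE, edgeR adjusted p = 0.0204), though its control levels lay under the filter, and after GC removal the value was 0.17.

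Zinc-ribbon subunits related to the elongation factor that rescues stalled Pol II are encoded by POLR1H, POLR2I and POLR3K. POLR1H measured 4.96, 6.37 and 8.72 CPM in controls and 2.05, 3.13 and 1.61 CPM with Oligonol. It showed the lowest fold change of the 33, with the groups apart (log2 fold change -1.57 ± 0.30 SE, edgeR adjusted p = 0.0087). With the GC trend removed it was -1.34 ± 0.26 SE (edgeR adjusted p = 0.0398). In fits that joined GC removal with leaving out a library, the number of subunit genes called lower was 5 without control 1, 1 without Oligonol 2, and 0 without any of the other 4. ZNRD1ASP, a unitary pseudogene that overlaps POLR1H, had a log2 fold change of 0.29 (edgeR adjusted p = 0.398), and the sources used here do not say whether counting used strand.

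POLR2I, at 24.5 CPM the highest of all subunit genes in controls, measured 17.4, 29.6 and 26.5 CPM there and 8.12, 15.5 and 9.23 CPM with Oligonol. Its groups were apart (-1.17 ± 0.32 SE, edgeR adjusted p = 0.0202), and its value after GC removal was -0.30. POLR3K overlapped between groups, at 0.945 to 1.27 CPM and 0.919 to 1.25 CPM (-0.14 ± 0.25 SE, edgeR adjusted p = 0.648). POLR2I and the gene TBCB overlap on chromosome 19, and TBCB was lower by a similar amount (log2 fold change -1.09). Further subunit genes overlap other genes. Among these were LRWD1 with POLR2J (-1.28), ARHGAP45 with POLR2E (-1.03), DOK4 with POLR2C (-1.20) and CD151 with POLR2L (-1.15). RNF115 with POLR3C (0.86) and UBE2D4 with POLR2J4 (0.079) had positive values. Whether overlap affected the counts was not tested.

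The assembly platform that nucleates each enzyme pairs POLR2C with POLR2J in Pol II and POLR1C with POLR1D in Pol I and III. POLR2C ranged over 8.78 to 12.99 CPM in controls and 6.91 to 9.27 CPM with Oligonol, and its difference did not pass (-0.49, edgeR adjusted p = 0.0953). POLR2J measured 11.3, 19.6 and 19.7 CPM in controls and 5.11, 10.2 and 6.53 CPM with Oligonol, all below the controls (-1.22 ± 0.32 SE, edgeR adjusted p = 0.0183). After GC removal POLR2J had a log2 fold change of -0.49 and did not pass. With GC of the longest coding transcript it was -0.68 and passed (edgeR adjusted p = 0.0396). Neither POLR1C (-0.14) nor POLR1D (-0.27) passed, and both overlapped between groups. After GC removal POLR1C stood at -0.33 (edgeR adjusted p = 0.272) and POLR1D further from 0 at -0.96 (edgeR adjusted p = 0.122). With GC of the longest coding transcript POLR1D stood at -0.46 (edgeR adjusted p = 0.183). POLR1D was among the more abundant, at 7.83 to 15.6 CPM in controls.

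POLR2J has near-identical copies on chromosome 7, so reads may have been divided among them and each copy's own value is uncertain. The first 150 coding bases of each (GENCODE 29) are shown because of this, 5′ to 3′, with bases that differ from POLR2J in capitals and gaps left unmarked.
POLR2J: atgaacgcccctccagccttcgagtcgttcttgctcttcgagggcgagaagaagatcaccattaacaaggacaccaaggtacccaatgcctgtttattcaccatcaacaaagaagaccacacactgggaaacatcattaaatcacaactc
POLR2J2: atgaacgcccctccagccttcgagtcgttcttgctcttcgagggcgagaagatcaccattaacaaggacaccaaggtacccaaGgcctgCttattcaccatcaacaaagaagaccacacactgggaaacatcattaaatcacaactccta
POLR2J3: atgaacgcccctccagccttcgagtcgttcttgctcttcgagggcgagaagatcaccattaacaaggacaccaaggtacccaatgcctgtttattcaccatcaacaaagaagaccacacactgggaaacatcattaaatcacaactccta

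Over the whole coding sequence, POLR2J2 was 93.9% and POLR2J3 94.4% identical to POLR2J, with 21 and 19 differing bases and 12 gapped bases each, and the copies differed from each other at 2 bases. POLR2J2 measured 0.988, 0.998 and 0.630 CPM in controls and 0.830, 0.928 and 1.05 CPM with Oligonol (log2 fold change 0.092, edgeR adjusted p = 0.797). The POLR2J3 row ENSG00000285437 measured 13.3, 17.2 and 15.3 CPM in controls and 8.67, 9.40 and 8.38 CPM with Oligonol (-0.79 ± 0.19 SE, edgeR adjusted p = 0.0131). The row ENSG00000168255, which spans an overlapping stretch of chromosome 7, measured 11.6, 12.9 and 9.14 CPM in controls and 6.26, 7.16 and 7.07 CPM with Oligonol (-0.71 ± 0.19 SE, edgeR adjusted p = 0.0198). Both rows of POLR2J3 were lower in every Oligonol library, and POLR2J2 overlapped. After GC removal the rows of POLR2J3 stood at -0.45 and 0.0031, and neither passed. With GC of the longest coding transcript ENSG00000285437 passed at -1.36 (edgeR adjusted p = 0.0016). In that fit ENSG00000168255 stood at -0.044 (edgeR adjusted p = 0.878). POLR2J4, kept by its name although GENCODE lists it as a processed transcript, measured 0.957, 1.31 and 1.01 CPM in controls and 0.526, 0.541 and 0.636 CPM with Oligonol (-0.91 ± 0.26 SE, edgeR adjusted p = 0.0236). Its value after GC removal was -0.49, which did not pass (edgeR adjusted p = 0.251). Summing POLR2J, POLR2J2 and both rows of POLR2J3, whose reads weigh differently by transcript length, gave 37.2, 50.7 and 44.8 CPM in controls and 20.9, 27.6 and 23.0 CPM with Oligonol. The summed level was lower in every Oligonol library, with a log2 ratio of means of -0.89. Without the copies, 29 subunit genes were tested, of which 3 were higher and 11 lower (all genes tested 26.0% and 23.0%), with a median of -0.27.

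The 5 subunits common to all enzymes had a median log2 fold change of -0.82. Of these, 3 were lower and 0 higher (all genes tested 23.0% and 26.0%), and POLR2K and POLR2L did not pass. POLR2E measured 21.7, 26.1 and 21.8 CPM in controls and 9.59, 18.8 and 11.0 CPM with Oligonol, with the groups apart (-0.82 ± 0.29 SE, edgeR adjusted p = 0.0446). POLR2F measured 7.38, 9.86 and 8.57 CPM in controls and 3.40, 6.53 and 3.45 CPM with Oligonol, also apart (-0.96 ± 0.29 SE, edgeR adjusted p = 0.0263). POLR2H measured 5.78, 8.08 and 12.1 CPM in controls and 4.32, 5.93 and 3.88 CPM with Oligonol, where Oligonol 2 lay above control 1 (-0.88 ± 0.30 SE, edgeR adjusted p = 0.0388). In both POLR2E and POLR2F the second Oligonol library was well above the other two.

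After removal of the trend with median transcript GC the 3 lower genes parted. POLR2E stood at 0.093, POLR2F at -0.35 and POLR2H at -1.02 (edgeR adjusted p = 0.0837 for POLR2H), and none passed. With GC of the longest coding transcript they stood at -0.044, -0.33 and -0.026, and again none passed. The parting therefore depended on the GC measure, which for POLR2H was 49.9% by the median and 60.1% by the longest. POLR2K, with the lowest transcript GC of the group at 36.6%, measured 1.93, 4.52 and 3.47 CPM in controls and 3.62, 2.72 and 3.08 CPM with Oligonol (-0.064, edgeR adjusted p = 0.872). With the GC trend removed its log2 fold change was -1.24 (edgeR adjusted p = 0.0561), so the value moved away from 0 in that fit. POLR2L measured 16.97 to 21.6 CPM in controls and 8.17 to 19.9 CPM with Oligonol, overlapping (-0.52, edgeR adjusted p = 0.208).

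**Figure D4:**
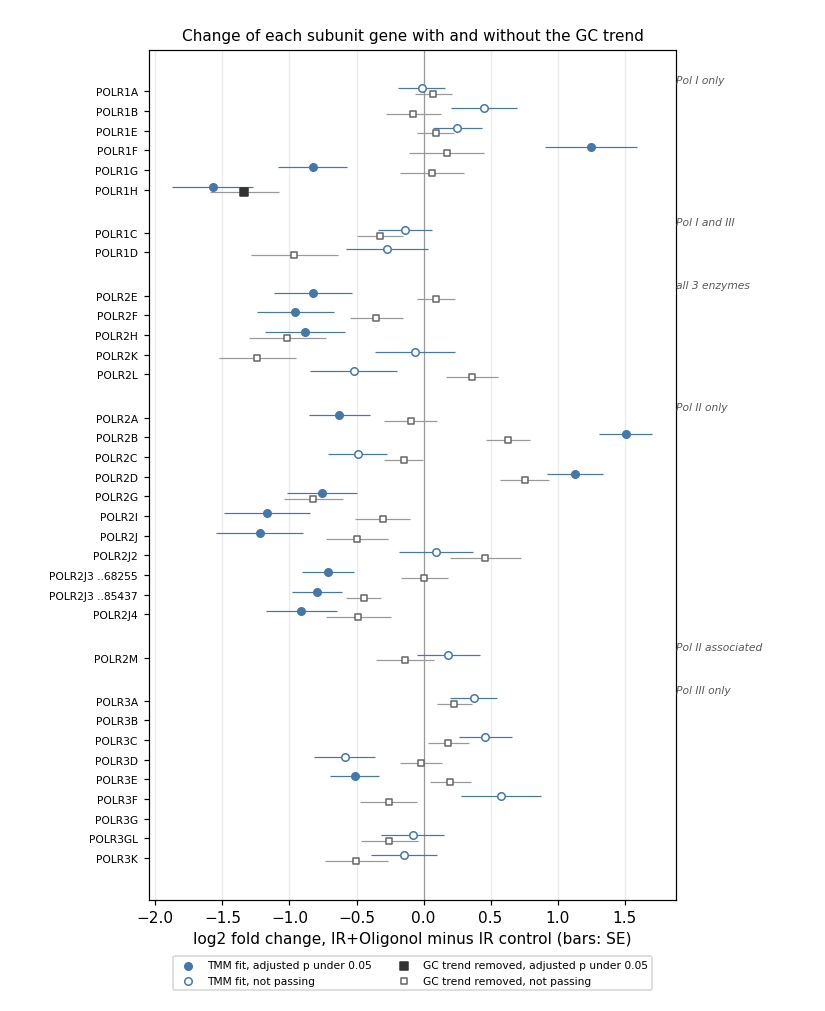
Log2 fold change (IR+Oligonol minus IR control) of 32 tested subunit genes with SE bars, in the fit with TMM scaling (circles) and in the fit with each library's GC trend removed (squares), with symbols filled where the edgeR adjusted p is under 0.05. Of 16 filled circles, 3 lie above 0 and 13 below; 1 square is filled, that of POLR1H. Under library totals none of the 13 is called lower. POLR3B and POLR3G were not tested.

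Subunits found only in Pol I had a median log2 fold change of 0.12. A heterodimer of the POLR1E and POLR1G products aids initiation and elongation on ribosomal DNA. POLR1E measured 1.56 to 1.96 CPM in controls and 2.04 to 2.14 CPM with Oligonol, apart but not passing (0.25, edgeR adjusted p = 0.274). POLR1G measured 1.09, 1.66 and 1.65 CPM in controls and 0.754, 0.861 and 0.857 CPM with Oligonol, all below (-0.83 ± 0.26 SE, edgeR adjusted p = 0.0303). POLR1G had a value of 0.062 after GC removal. It shares part of its locus with ERCC1, which was lower too (-1.06).

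Subunits found only in Pol III had a median of -0.11, with 2 of 8 tested lower and 0 higher, where 23.0% of all genes tested were lower and 26.0% higher. The dimer of POLR3D and POLR3E products acts in initiation and termination. POLR3E measured 6.20, 5.94 and 6.15 CPM in controls and 4.53, 4.80 and 3.48 CPM with Oligonol, all below (-0.52 ± 0.18 SE, edgeR adjusted p = 0.0447), and 0.20 after GC removal. POLR3D did not pass at -0.59 (edgeR adjusted p = 0.0616). Products of POLR3C, POLR3F and either POLR3G or POLR3GL form a trimer that opens promoter DNA. POLR3C was above the controls in all Oligonol libraries, at 2.19 to 2.31 CPM against 2.44 to 3.48 CPM, without passing (0.46, edgeR adjusted p = 0.0839). POLR3F (0.58, edgeR adjusted p = 0.136) overlapped between groups.

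POLR3G and POLR3GL encode alternative versions of 1 subunit, POLR3G being the one typical of undifferentiated and growing cells. POLR3GL measured 1.97, 2.20 and 3.13 CPM in controls and 2.53, 2.50 and 1.89 CPM with Oligonol (-0.082, edgeR adjusted p = 0.789). POLR3G, under the filter, measured 0.171, 0.208 and 0.342 CPM in controls and 0.434, 0.255 and 0.808 CPM with Oligonol. POLR3GL exceeded POLR3G in every library, by 11.5, 10.6 and 9.15 times in controls and by 5.84, 9.80 and 2.34 times with Oligonol. These ratios overlapped (log2 difference -1.02, exact permutation p = 0.2). POLR2M, whose product binds Pol II and restrains it, measured 1.60 to 3.00 CPM in controls and 2.72 to 2.77 CPM with Oligonol and did not pass (0.19, edgeR adjusted p = 0.535).

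Levels of Pol II subunits lay further apart in controls than with Oligonol, as did those of all tested subunit genes together. Among the 7 Pol II-only genes other than the POLR2J copies, the SD of log2 CPM across subunits was 1.39, 1.46 and 1.71 in the controls and 0.49, 0.72 and 0.48 with Oligonol. From the lowest to the highest of the 7, log2 CPM spanned 3.32 to 4.22 in controls and 1.35 to 2.20 with Oligonol. After GC removal the SDs were 1.15, 1.22 and 1.40 against 0.75, 0.80 and 0.77. The groups stayed apart in both, with a smaller gap after GC removal. Among the 8 tested Pol III-only genes the SDs were 1.01, 1.13 and 1.26 in controls and 0.85, 0.92 and 0.78 with Oligonol, and after GC removal 0.78, 0.92 and 0.96 against 1.13, 1.01 and 1.02, the other way round. For the 6 Pol I-only genes they were 1.25 to 1.58 and 1.08 to 1.15. After GC removal they were at least 1.205 in every control and at most 1.14 in every Oligonol library. These 6 include POLR1F, which passed the filter through its Oligonol libraries alone. It had the lowest level of the 6 in every control (log2 CPM -1.64, -0.90 and -1.21). The Pol I spread was not computed without POLR1F, so no difference between groups is drawn from it. All these spreads were computed after the values had been seen and carry no test.

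Genes that work with the polymerases were counted in 6 lists. Their counts are read against the shares of all genes tested, 26.0% higher and 23.0% lower, and 2.89% and 2.56% after GC removal. Among 7 factors that load Pol I on ribosomal DNA, 4 were higher and 1 lower. TAF1A rose from 0.882, 1.13 and 1.06 CPM to 2.52, 2.22 and 2.46 CPM (log2 fold change 1.21, edgeR adjusted p = 0.0072), while TAF1C, a partner in the same selectivity complex, fell from 7.72, 6.85 and 7.58 CPM to 2.70, 4.10 and 2.53 CPM (-1.26, edgeR adjusted p = 0.0077). Neither was called after GC removal, and none of the 7 was. Transcripts of TAF1A held 40.0% GC and those of TAF1C 63.3%.

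Of 31 general initiation factors of Pol II, 12 were higher and 5 lower (all genes 26.0% and 23.0%), and 1 and 1 after GC removal (all genes 2.89% and 2.56%). GTF2A1, which steadies the TATA-binding protein on DNA, rose (1.40, edgeR adjusted p = 0.0063, and 0.77 with adjusted p = 0.0379 after GC removal). GTF2H4, part of the helicase-bearing factor TFIIH, fell (-1.47, edgeR adjusted p = 0.0062, and -0.88 with adjusted p = 0.0294). Of 19 tested elongation genes 4 were higher and 4 lower, near the shares of all genes, and 2 and 0 after GC removal. CCNT2, a cyclin of the kinase that releases paused Pol II, rose by 1.81 (edgeR adjusted p = 0.0062, and 0.0485 after GC removal). CDC73, of the PAF1 elongation complex, rose by 1.81 (edgeR adjusted p = 0.0070, and 0.0509 after GC removal).

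Of 18 Pol III factors 4 were higher and 7 lower (all genes 26.0% and 23.0%), and 1 and 1 after GC removal (all genes 2.89% and 2.56%). GTF3C3, of the factor that binds transfer RNA genes, rose (1.27, edgeR adjusted p = 0.0073), and BRF1, which recruits Pol III, fell (-1.03, edgeR adjusted p = 0.0097), and neither passed after GC removal. Of 17 tested genes for polymerase assembly and import 6 were higher and 2 lower (all genes 26.0% and 23.0%), and 1 and 0 after GC removal. PFDN2, a prefoldin of the assembly chaperone, rose from 3.78, 5.01 and 4.76 CPM to 7.25, 7.98 and 7.36 CPM (0.75, edgeR adjusted p = 0.0132, and 0.73 with adjusted p = 0.0359 after GC removal). URI1, a prefoldin-like protein of the same chaperone, rose too (1.19, edgeR adjusted p = 0.0132) but was not called after GC removal. Of 6 mitochondrial transcription genes 2 were higher and 1 lower (all genes 26.0% and 23.0%), and none after GC removal. The mitochondrial polymerase gene POLRMT fell (-1.34, edgeR adjusted p = 0.0086) and TFB1M, a mitochondrial ribosomal RNA methyltransferase, rose (1.42, edgeR adjusted p = 0.0092).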

How the data were processed

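Gene values came from 6 total-RNA libraries (TruSeq Stranded Total RNA, 2 ug RNA, paired-end 100 nt reads, per the labels' protocols). Tools and build in the submitters' processing notes are kallisto 0.46.1, FastQC, edgeR and GRCh38.p13, without roles. The authors deposited estimated counts, which were not rounded by them and were rounded here, and a scaled signal equal to the deposited estimated count times 1 constant per library, which was not used further. The read depth behind the values is not stated; protein-coding values corresponded to 5216697 to 6436410 fitted reads per library. Here edgeR 4.0.16 in R 4.3.3 was used (filterByExpr, TMM, robust quasi-likelihood fit with group as the only term, 2-sided, Benjamini-Hochberg over 16574 genes, threshold 0.05). GC trends were natural splines with 5 degrees of freedom on log2 CPM (prior count 2) over protein-coding genes, entered as offsets. GC came from GENCODE 29 transcripts. Members, lists and tests were chosen with earlier results of these data known. All but 1 of the members, which enters the counts and is not reported singly here, are named. Library values are given for called members, largest subunits, ratio pairs and POLR2J copies, and the 2 genes with the smallest p are named from each list. Of the lists, 17 of 18 assembly genes matched. Alternatives were other scalings, DESeq2 1.42.0, limma-voom 3.58.1, filters, thresholds, a replicate block and left-out libraries. GC of the longest coding transcript, read equivalents, GC removal with libraries left out, and ratios after GC removal were added after seeing the data. The fitting code was tested on simulated data.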

Additional observations from a re-analysis of the deposited data

Results flagged for a closer look

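A signal appeared outside the genes compared above. POLR2KP1, a pseudogene row of 168 nt that the rule left out, was listed at 0 in all 3 controls and at 43.4, 25.4 and 30.7 estimated counts with Oligonol (mean 33.15). In reads this came to 0.758, 0.578 and 0.572 of a read per library on the fitted scale, because short transcripts weigh heavily in these values.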

How the results depend on the processing

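RLE scaling, limma-voom and read equivalents kept all 17 calls, and DESeq2 kept 14. RLE scaling added POLR3D as lower, and read equivalents added POLR3D as lower and POLR3B as higher. POLR1H, POLR2B and POLR2D kept their calls in all 6 fits that left out 1 library and without a filter. Control levels of POLR3B, POLR3G and POLR1F lay under the filter. By the length of the longest coding transcript, approximate reads over the 6 libraries were 31.8 to 146 (POLR3B), 33.7 to 204 (POLR3G) and 57.8 to 311 (POLR1F). The read-equivalents fit used the median transcript length instead, which gives these genes fewer reads. For POLR3G that length was 682 nt, against 3285 nt for the longest. The labels share replicate numbers, but same-numbered libraries had correlations of 0.087, -0.0087 and -0.15, so the numbers were not taken as pairs. With the replicate block 13 of the 17 calls were kept (POLR1G, POLR2A, POLR2J4 and POLR3E were not) and 7030 genes were called in all. For the values that follow, a cause was not tested beyond what each setting itself changes.

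With library totals 24 subunit genes were called higher (68.1% of all genes tested) and 0 lower (0.223%). Medians were then 0.89 for all members, 1.52 for Pol I, 0.52 for the 5 common subunits, 0.65 for Pol II and 1.27 for Pol III. Log2 fold changes that turned positive were 1.40 for POLR1A, 1.23 for POLR1C, 1.15 for POLR1D, 0.57 for POLR1G, 0.73 for POLR2A, 0.89 for POLR2C, 0.48 for POLR2E, 0.37 for POLR2F, 0.62 for POLR2G, 0.52 for POLR2H, 0.18 for POLR2I and 0.13 for POLR2J. The same held for POLR2J3 at 0.59 (ENSG00000285437) and 0.65 (ENSG00000168255), POLR2J4 at 0.47, POLR2K at 1.38, POLR2L at 0.78, POLR3D at 0.80, POLR3E at 0.86, POLR3GL at 1.33 and POLR3K at 1.21. Upper-quartile scaling gave 0.081 for POLR1A, 0.034 for POLR2K and 0.012 for POLR3GL.

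With protein-coding genes only, 5 were higher and 13 lower, where 3983 and 3519 of the 11724 genes tested were. POLR1A then stood at 0.052 and POLR2K at 0.010. DESeq2 gave -0.045 for POLR2J2, and limma-voom 0.0050 for POLR2K. Requiring at least 10 counts in all libraries gave 7 higher and 9 lower, with 6696 genes called in all, a number not turned into a share here. Medians were then -0.47 for Pol II and 0.13 for Pol III. Log2 fold changes were 0.24 for POLR1A, 0.10 for POLR1C, 0.20 for POLR2K, 0.17 for POLR3GL and 0.088 for POLR3K. With no filter 2 of 35 were higher and 2 lower, where 2964 and 1603 of the 42070 genes tested were. In all 4567 genes were then called, and the Pol III median was 0.14. At a threshold of 0.01 in the main fit 2 were higher and 1 lower, and 2180 of 16574 genes were called in all.

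With the GC trend removed 0 subunit genes were higher, 1 was lower and 883 genes were called in all. Medians were -0.098 for all members and -0.15 for Pol II, and the log2 ratio differed by -0.70 for POLR2A:POLR2B and by 0.14 for POLR1A:POLR1B. Turned values were 0.073 for POLR1A, -0.076 for POLR1B, 0.062 for POLR1G, 0.093 for POLR2E, 0.0031 for POLR2J3 (ENSG00000168255), 0.36 for POLR2L, -0.14 for POLR2M, 0.20 for POLR3E and -0.26 for POLR3F. GC removal with the replicate block called 0 higher, 0 lower and 0 genes in all, with medians of -0.11 for all members and -0.14 for Pol II. The turned values were then 0.068 for POLR1A, -0.075 for POLR1B, 0.070 for POLR1G, 0.089 for POLR2E, 0.012 for POLR2J3 (ENSG00000168255), 0.34 for POLR2L, -0.11 for POLR2M, 0.19 for POLR3E and -0.26 for POLR3F. With GC of the longest coding transcript 7 were lower (POLR2K, POLR2M and POLR3D among them) and 2161 genes called, with medians of -0.044 for the common subunits and -0.21 for Pol II, and 0.16 for POLR1A, -0.098 for POLR1B, 0.28 for POLR2L, -0.87 for POLR2M and -0.20 for POLR3F.

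GC removal without 1 library gave 0 higher in each case. Members lower and genes called in all were 5 and 1307 without control 1, 0 and 0 without control 2, 0 and 51 without control 3, 0 and 2 without Oligonol 1, 1 and 619 without Oligonol 2, and 0 and 0 without Oligonol 3. Without GC removal, leaving out each replicate in turn gave 2 to 16 members lower, and 3439 to 8921 of 16574 genes called in either direction. The lowest counts of members lower came without Oligonol 1 or Oligonol 3 (2 each) and control 2 (3). Log2 fold changes ranged from -0.093 to 0.071 for POLR1A, -0.089 to 0.21 for POLR2J2, -0.34 to 0.23 for POLR2K, -0.030 to 0.37 for POLR2M and -0.22 to 0.15 for POLR3GL.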
